A study of Mus musculus with 8 samples.

Results

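The enzymes that conjugate drugs, hormones and electrophiles were followed by family in a mouse hepatocyte line with and without expression of Zfp125, which encodes a zinc finger protein. Members were taken by annotated gene symbol, as a set chosen with earlier results of these data known. They were UDP-glucuronosyltransferases of families 1 to 3 (UGT) and all cytosolic sulfotransferases named Sult (SULT). The alpha, kappa, mu, omega, pi and theta glutathione transferases (GST) were also taken. Together the families gave 57 of the 41345 transcript clusters measured, a transcript cluster being the array's unit for a gene. They comprise 13 UGT, 21 SULT and 23 GST clusters, of which 49 carry 1 gene symbol and 8 carry several.

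The series compares 4 arrays of AML12 cells stably expressing Zfp125 with 4 arrays of AML12 cells carrying the empty vector. Both were selected in G418 medium and then kept in control medium, and the question is which genes differ when Zfp125 is expressed. AML12 is a hepatocyte line that came from the liver of a mouse carrying a transforming growth factor alpha transgene, so both groups share that origin. Whether the 4 arrays per group stem from separate cultures or lines is not stated, so p-values here measure array-to-array spread, which may be technical. Zfp125 itself is not analysed here, and the labels were therefore not checked against it.

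Values are deposited log2 expression values, and a difference of 1 is a 2-fold difference. Array medians lay between 4.32 and 4.37 and correlations between arrays between 0.977 and 0.984, so no array stood apart. With limma and Benjamini-Hochberg adjustment over all clusters, the threshold for a call was an adjusted p of 0.05, which 51 clusters met as lower in Zfp125 cells (0.123% of all) and 10 as higher (0.0242%). Of 17 measured hepatocyte markers 14 lay above the median level of all clusters, 4.34, among them Alb, Ttr and Hnf4a, while Asgr1, Cyp2e1 and Cyp3a11 did not. Their mean was 7.42 to 7.71 on empty vector arrays and 7.03 to 7.33 on Zfp125 arrays. That shift ran beside the changes below, and its part in them was not tested. Of the 17, 2 were called lower and 0 higher: Tat and Fgb had changes of -1.46 and -1.21 (limma, adjusted p = 0.021 and 0.0376). Alb, Apoa1, Apoh, Ahsg and Hnf4a also lay lower on every Zfp125 array than on every empty vector array, where 3.03% of all clusters did so. Apoh and Ahsg had changes of -1.04 and -1.33, while Ttr, Asgr1 and Cyp2e1 had changes above 0 with overlapping groups. The mean of 6 biliary or progenitor markers was 5.56 to 5.67 against 5.53 to 5.70, that of 7 leukocyte markers 4.02 to 4.21 against 4.04 to 4.17, that of 6 endothelial markers 4.31 to 4.38 against 4.16 to 4.38 and that of 9 stellate cell or fibroblast markers 4.39 to 4.48 against 4.39 to 4.53. Of these, 3, 3, 3 and 5 lay above the median level. The 3 biliary or progenitor markers above it were Krt7, Krt19 and Sox9, with means of 6.35, 8.08 and 9.90 over the 8 arrays. Every Zfp125 array of Sox9 lay above every empty vector array, with a change of 0.28 ± 0.09 (limma, adjusted p = 0.315). Among clusters above the median level 4.86% lay apart in this direction. The other biliary or progenitor markers had overlapping groups, with changes of 0.03 in Krt7 and Epcam, -0.14 in Krt19, -0.24 in Cftr and -0.12 in Prom1. Epcam, Ptprc, Adgre1, Stab2, Cdh5, Lrat and Dcn were among the markers not above the median level.

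Conjugation makes lipophilic compounds soluble enough to leave the hepatocyte. UGT enzymes in the endoplasmic reticulum transfer glucuronic acid from UDP-glucuronic acid, SULT enzymes in the cytosol transfer sulfate from the donor PAPS, and glutathione transferases join glutathione to electrophiles; export pumps such as Abcc2 then move the conjugates into bile or blood. In liver these genes are known targets of hepatocyte factors such as Hnf4a, of xenobiotic receptors such as Nr1i2, Nr1i3 and Ahr, and, for many glutathione transferases, of Nfe2l2 (NRF2), which binds antioxidant response elements.

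The promoters of the sulfotransferase and of the alpha and pi class transferases on which the results turn are shown first. Whether their sequence bears on the changes was not tested. Of 65 symbols carried by the 57 clusters, 57 had a promoter in the RefSeq table of build GRCm38.p6, and Gsta4 was not among them. The 250 bases before each annotated start lie at chr7:126676419-126676668 (minus strand) for Sult1a1, chr9:78230419-78230668 (plus strand) for Gsta1, chr9:78347146-78347395 (minus strand) for Gsta2, chr19:4037913-4038162 (minus strand) for Gstp1, chr19:4042222-4042471 (minus strand) for Gstp2 and chr19:4059448-4059697 (minus strand) for Gstp3. Each is written 5′ to 3′ on the gene's strand, and capitals mark every match, on either strand, to TGANNNNGC, a loose form of the antioxidant response element core.
Sult1a1: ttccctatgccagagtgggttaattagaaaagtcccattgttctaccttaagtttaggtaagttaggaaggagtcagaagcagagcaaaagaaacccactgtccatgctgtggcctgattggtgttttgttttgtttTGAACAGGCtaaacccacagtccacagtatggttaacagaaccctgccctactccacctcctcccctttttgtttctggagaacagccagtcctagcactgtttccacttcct
Gsta1: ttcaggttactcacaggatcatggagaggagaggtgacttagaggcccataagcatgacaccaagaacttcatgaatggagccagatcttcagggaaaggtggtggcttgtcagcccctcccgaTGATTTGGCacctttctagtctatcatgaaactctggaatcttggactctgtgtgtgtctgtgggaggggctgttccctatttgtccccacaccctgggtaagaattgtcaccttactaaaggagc
Gsta2: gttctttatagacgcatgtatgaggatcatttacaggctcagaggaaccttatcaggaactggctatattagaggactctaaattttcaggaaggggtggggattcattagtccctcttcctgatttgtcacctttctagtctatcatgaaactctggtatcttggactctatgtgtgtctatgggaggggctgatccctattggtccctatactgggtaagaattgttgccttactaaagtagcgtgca
Gstp1: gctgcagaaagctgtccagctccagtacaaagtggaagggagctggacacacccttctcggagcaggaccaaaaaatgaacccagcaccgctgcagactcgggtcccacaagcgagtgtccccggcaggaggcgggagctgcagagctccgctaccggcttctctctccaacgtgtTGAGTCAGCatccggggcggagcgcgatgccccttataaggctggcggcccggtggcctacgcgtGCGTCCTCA
Gstp2: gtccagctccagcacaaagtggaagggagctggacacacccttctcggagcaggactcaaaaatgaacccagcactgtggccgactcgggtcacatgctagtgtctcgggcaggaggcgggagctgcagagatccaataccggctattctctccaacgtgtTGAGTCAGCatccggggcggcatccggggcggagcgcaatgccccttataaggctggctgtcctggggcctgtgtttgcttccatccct
Gstp3: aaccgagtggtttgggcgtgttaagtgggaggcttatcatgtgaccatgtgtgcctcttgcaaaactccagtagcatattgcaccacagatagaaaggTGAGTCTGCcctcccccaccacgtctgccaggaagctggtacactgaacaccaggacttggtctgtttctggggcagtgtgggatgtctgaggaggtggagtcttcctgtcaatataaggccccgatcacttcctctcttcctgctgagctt

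Gstp1 and Gstp2 were identical at 207 of 265 aligned positions (78.1%), and both hold the letters TGAGTCAGC, which start 74 and 89 bases before the start. Those letters occur on either strand in 0.347% of all 32851 promoter windows of this length, and were picked because both genes hold them. Gstp3 does not hold them, and it aligned with Gstp1 at 47.7% and with Gstp2 at 45.8% identity. Gsta1 and Gsta2 shared 70.5%, and Gsta1 shared 89.7% with the predicted alpha class gene Gm3776 and 87.9% with Gm10639. The loose core TGANNNNGC was in 25 of 67 member windows (37.3%) against 35.2% of all windows. The stricter TGACNNNGC, contained in the loose form, was in 3 (Gsta3, Gstm5 and Gstm7; 4.48% against 10.2%), and GCGTG, the aryl hydrocarbon receptor core, in 10 (14.9% against 28.2%). Gsta2 held no match to the loose core.

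Across the 3 families, 42 of 57 clusters had a change below 0 and 15 above, with a median of -0.12 on the log2 scale against -0.000952 over all clusters. Of the 57, 2 passed the test, both lower in Zfp125 cells: the phenol sulfotransferase Sult1a1 and 1 cluster of the alpha class transferases Gsta1 and Gsta2. In 10 of 57 clusters every Zfp125 array lay below every empty vector array, where 3.03% of all clusters did so, and in 0 every Zfp125 array lay above, where 3.2% did. All 10 had mean levels above the median of all clusters, a range that held 27 members and in which 4.18% of all clusters lay apart in this direction. By family, 7 of these 10 were GST, 2 SULT and 1 UGT clusters. The GST family had 20 of 23 changes below 0 with a median of -0.13, SULT 13 of 21 with -0.15, and UGT 9 of 13 with -0.08.

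At an unadjusted p under 0.05, 12 members lay lower and 1 higher, where 4.52% of all clusters lay lower and 4.91% higher. The number of GST clusters that passed differed between settings. Among the 25335 clusters with a symbol, where 0.592% were called lower and 0.434% higher, 6 of 23 GST clusters were lower: the alpha class cluster, Gsta4, Gsto1, Gstp1, the cluster of Gstp1 with Gstp2, and Gstp3. The same 6 passed with a trended, robust prior (0.305% and 0.169% of all clusters) and above the median level (0.706% and 0.416%, where 4.86% of clusters lay apart and higher). With 1 cluster per gene (0.636% and 0.446%) 4 GST and 2 SULT clusters were lower. Without variance moderation 0 members passed.

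**Figure D1:**
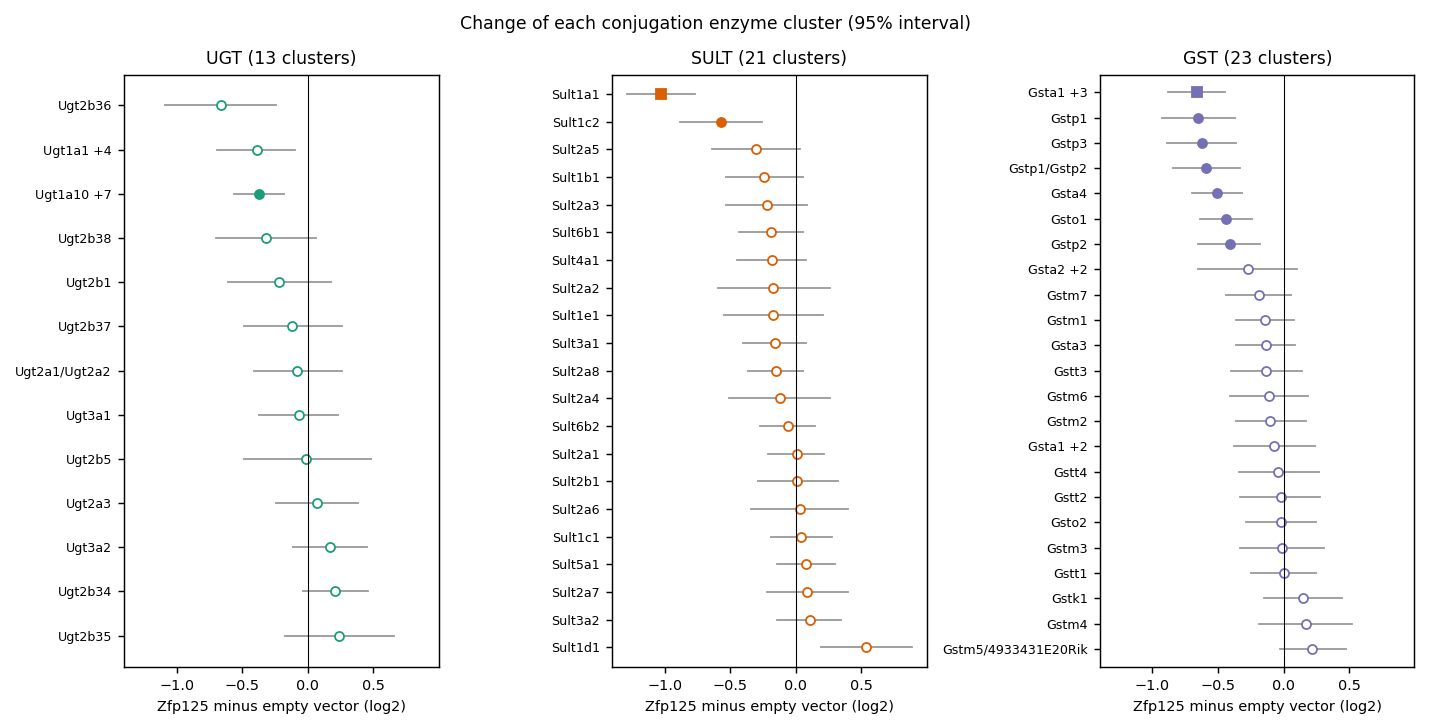
Change of each of the 57 clusters, Zfp125 minus empty vector in log2 units, with 95% intervals from limma; filled points have groups that do not overlap and squares passed the test. "+3" after a symbol means that the cluster carries 3 further symbols. Sult1a1 lies at -1.03, and the 7 filled GST points lie between -0.66 and -0.41.

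Sult1a1, which sulfates small phenols and drugs such as paracetamol, had values of 9.90, 9.77, 9.77 and 9.99 in empty vector cells and of 9.09, 8.87, 8.67 and 8.68 in Zfp125 cells. Every Zfp125 array lay below every empty vector array, by more than the spread within either group. It fell by 1.03 ± 0.12 (SE; 95% interval -1.29 to -0.77), a 2.04-fold lower level (limma, adjusted p = 0.0136). Among the 25335 clusters with a symbol the adjusted p was 0.000486. The call ended without empty vector replicate 4 (adjusted p = 0.0536) and without Zfp125 replicates 2 (0.0672) or 3 (0.0577), with changes of -1.12 to -0.98 over all 8 omissions, and without variance moderation (0.0822).

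Sult1c2, of the SULT1C subfamily, had values of 6.79, 6.53, 6.42 and 6.67 in empty vector cells and of 5.87, 6.36, 6.06 and 5.83 in Zfp125 cells, so its groups did not overlap. Its change was -0.57 ± 0.14 (adjusted p = 0.192), and with 1 cluster per gene it passed the test narrowly (adjusted p = 0.0492). Its neighbour in the genome, Sult1c1, had a change of 0.04 ± 0.10 and lay below the median level in both groups.

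Sult1d1, a catecholamine sulfotransferase of rodents, had values of 4.09, 3.97, 4.62 and 4.25 in empty vector cells and of 4.80, 5.0, 4.77 and 4.51 in Zfp125 cells. On the Zfp125 side 3 arrays lay above all empty vector arrays and 1 lay below the highest of them. The change of 0.54 ± 0.16 was the largest above 0 among the 57 clusters and missed the threshold (adjusted p = 0.292). Its flanking genes Sult1b1, which sulfates thyroid hormones, and Sult1e1, the estrogen sulfotransferase, were dim, with means of 2.38 and 2.83 in empty vector cells, and had changes of -0.24 ± 0.13 and -0.17 ± 0.17. The values of Sult1b1, 2.41, 2.62, 2.34 and 2.17 against 2.43, 1.95, 2.06 and 2.16, overlapped.

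The SULT2 genes, which sulfate bile acids and steroids, were mostly dim: 7 of 9 lay at or below the median level. Their changes ran from -0.30 in Sult2a5 to 0.09 in Sult2a7. Sult2a5 had values of 3.50, 3.52, 3.78 and 3.69 in empty vector cells and of 3.60, 3.53, 3.14 and 3.00 in Zfp125 cells, which overlap (adjusted p = 0.577). Sult2b1, the cholesterol sulfotransferase, had means of 4.48 ± 0.10 and 4.49 ± 0.27 (SD, n = 4), a change of 0.01 with a 95% interval of -0.29 to 0.32. The 6 clusters of Sult3a1, Sult3a2, Sult4a1, Sult5a1, Sult6b1 and Sult6b2 were all dim and had changes of -0.19 to 0.11, and 0 passed limma's test, also at an unadjusted p under 0.05. The Sult2a genes are close paralogs, and the probes of one may read the transcript of another.

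Of the alpha class clusters, 3 are annotated to Gsta1 and Gsta2 with other genes. The cluster annotated to Gsta1, Gsta2, Gm3776 and Gm10639 together had values of 5.82, 5.67, 5.98 and 5.73 in empty vector cells and of 5.03, 5.23, 5.19 and 5.09 in Zfp125 cells. The groups lay clearly apart, and the cluster fell by 0.66 ± 0.10 (95% interval -0.88 to -0.45; adjusted p = 0.0439). A second cluster, annotated to Gsta1, Gsta2 and Gm3776, had values of 5.45, 5.73, 5.37 and 5.63 against 5.79, 5.31, 5.27 and 5.53. Its groups overlapped fully, with a change of -0.07 ± 0.14 (95% interval -0.38 to 0.24). The third, annotated to Gsta1, Gsta2 and Gm10639, was dim and had a change of -0.27 ± 0.17.

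The first alpha class cluster differed in its change from the second by -0.60 (two-sided exact permutation test, p = 0.0286, the smallest that 4 against 4 arrays can give) and from the third by -0.39 (exact p = 0.0857). Adjusted over 3 such comparisons between clusters that share symbols, these were 0.0858 and 0.129. The comparisons were chosen after the values were seen, and neither difference passes after adjustment. Since several near-identical genes share these clusters, the data do not say which of them was lower. The call of the first cluster ended on leaving out any 1 of the 8 arrays (adjusted p = 0.0753 to 0.155, changes -0.71 to -0.60) and without variance moderation (0.0999).

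Gsta4, the alpha class enzyme that detoxifies 4-hydroxynonenal, a product of lipid peroxidation, has a cluster of its own. Its values were 7.88, 7.77, 7.90 and 7.92 in empty vector cells and 7.33, 7.44, 7.42 and 7.22 in Zfp125 cells. All Zfp125 arrays lay lower, and the spread within each group was small beside the gap (SD 0.07 and 0.10). The change of -0.51 ± 0.09 missed the threshold over all clusters (adjusted p = 0.0746) and passed it among clusters with a symbol (adjusted p = 0.0145) and above the 25th percentile of level (0.0478). Gsta3, another alpha class gene, which lies apart from the others, had values of 9.49, 9.26, 9.34 and 9.43 against 9.38, 9.36, 9.18 and 9.08, an overlap with a change of -0.13 (95% interval -0.36 to 0.09).

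The pi class, encoded by the adjacent genes Gstp1, Gstp2 and Gstp3, was lower on all Zfp125 arrays in each of its 4 clusters. Gstp1 had values of 10.85, 10.72, 10.39 and 10.87 in empty vector cells and of 10.12, 10.15, 10.12 and 9.85 in Zfp125 cells. The cluster shared by Gstp1 and Gstp2 had values of 10.06, 9.71, 9.74 and 10.10 against 9.37, 9.37, 9.27 and 9.27. Empty vector replicate 3 was the lowest of its group for Gstp1, and the groups lay apart in both clusters.

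Gstp3 had values of 7.46, 7.56, 7.27 and 7.78 in empty vector cells and of 7.03, 6.90, 6.75 and 6.90 in Zfp125 cells. A cluster annotated to Gstp2 alone had values of 9.63, 9.47, 9.38 and 9.78 against 9.09, 9.25, 9.18 and 9.08. Here the groups were closest, with the highest Zfp125 array at 9.25 and the lowest empty vector array at 9.38.

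The changes of Gstp1, the shared cluster, Gstp3 and Gstp2 were -0.65 ± 0.13, -0.59 ± 0.11, -0.62 ± 0.12 and -0.41 ± 0.11, with a median of -0.60. None passed the test over all clusters (adjusted p = 0.109, 0.106, 0.107 and 0.223). Among clusters with a symbol the first 3 did (0.0191, 0.0199 and 0.0187) and Gstp2 did not (0.0906). Gstp1 and Gstp2 are near-identical copies, so their 3 clusters may read the same transcripts and are not 3 independent measurements.

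**Figure D2:**
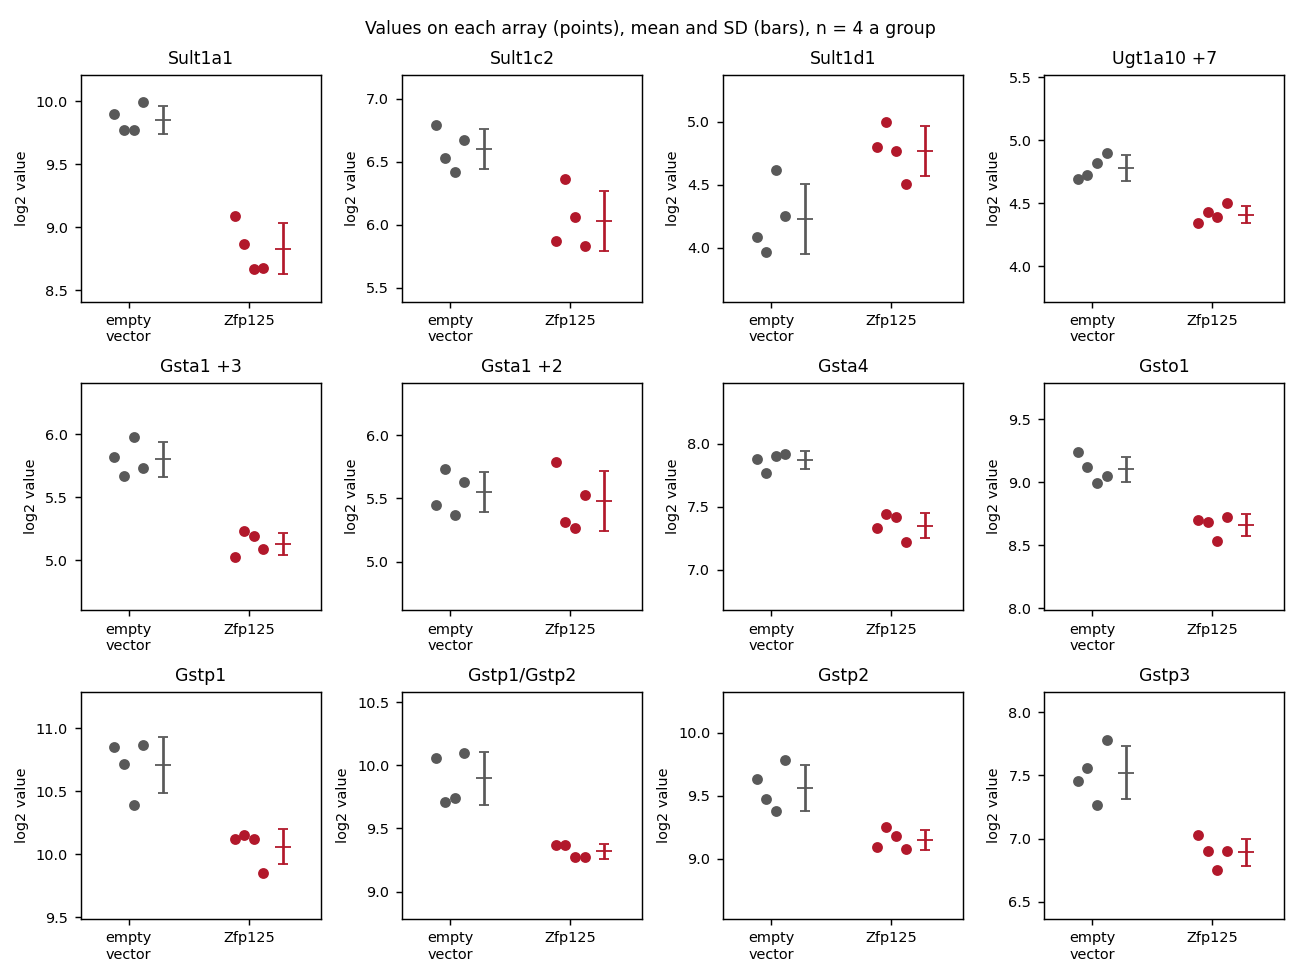
Log2 values on each array for 12 clusters, with the mean and SD of each group beside the points and axes of the same height in every panel. The points of the 2 groups lie apart in all panels except Sult1d1 and the alpha class cluster labelled Gsta1 +2.

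In the omega class, Gsto1, a thiol transferase that also reduces dehydroascorbate, had values of 9.24, 9.12, 8.99 and 9.05 in empty vector cells and of 8.70, 8.68, 8.53 and 8.72 in Zfp125 cells, which lie apart. Its change was -0.44 ± 0.09 (adjusted p = 0.121, and 0.0365 among clusters with a symbol). The adjacent gene Gsto2 had means of 4.40 ± 0.07 and 4.38 ± 0.24, a change of -0.02 with a 95% interval of -0.29 to 0.25. The difference between the changes of Gsto1 and Gsto2 was not tested.

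The mu, theta and kappa classes gave 12 clusters, 0 of which lay apart between the groups. Of all clusters 3.03% lay apart and lower and 3.2% apart and higher, so a count of 0 in 12 is near those shares. The 7 mu class genes form 1 run in the genome, and their changes ranged from -0.19 in Gstm7 to 0.22 in the cluster of Gstm5. Gstm1, a main mu class enzyme of liver, had values of 7.95, 7.92, 7.79 and 8.10 in empty vector cells and of 7.96, 7.73, 7.75 and 7.76 in Zfp125 cells, a change of -0.14 (95% interval -0.36 to 0.08). Gstt1, which acts on small halogenated compounds, had values of 8.14, 8.18, 8.05 and 8.26 against 8.28, 8.34, 8.08 and 7.92. Its mean was 8.16 ± 0.09 against 8.15 ± 0.19, and a change of -0.66, that of the first alpha class cluster, lies outside its 95% interval of -0.25 to 0.25. Gstk1, found in mitochondria and peroxisomes, had a change of 0.15 ± 0.13.

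The UGT1A enzymes come from 1 locus whose alternative first exons join shared last exons, so its 2 clusters carry 8 and 5 of the UGT1A symbols and cannot be split by gene. They include Ugt1a1, the enzyme that glucuronidates bilirubin. The cluster with 8 symbols had values of 4.69, 4.72, 4.82 and 4.90 in empty vector cells and of 4.34, 4.43, 4.39 and 4.50 in Zfp125 cells, which lie apart but close to the median level of all clusters. The cluster with 5 symbols had values of 5.92, 5.83, 6.27 and 6.27 against 5.53, 5.85, 5.78 and 5.55, where Zfp125 replicate 2 lay above 1 empty vector array. Their changes were alike in size, -0.37 ± 0.09 and -0.39 ± 0.13 (difference -0.02, exact permutation p = 0.83, the same after adjustment over the 3 comparisons), and neither passed the test (adjusted p = 0.173 and 0.376, and 0.0775 for the first among clusters with a symbol).

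The UGT2 genes, which glucuronidate steroids and bile acids, were dim except for 1. Of the 9 UGT2A and UGT2B clusters, only Ugt2b34 lay above the median level. It had values of 7.21, 6.90, 7.09 and 7.34 in empty vector cells and of 7.45, 7.39, 7.33 and 7.21 in Zfp125 cells, a change of 0.21 (95% interval -0.04 to 0.46; adjusted p = 0.62). Ugt2b36 had values of 2.43, 3.31, 2.87 and 2.68 against 2.07, 2.23, 2.46 and 1.89; its change of -0.66 ± 0.19 came from a level where little signal was measured (adjusted p = 0.288). Ugt2b38 had values of 2.33, 1.76, 2.57 and 2.17 against 1.97, 1.67, 1.84 and 2.08, with a change of -0.32 ± 0.17. The other 6 UGT2 clusters had changes of -0.22 to 0.24, and Ugt3a1 and Ugt3a2 of -0.07 and 0.17, all with overlapping groups. Of the 13 UGT clusters 0 passed limma's test, and 3 lay lower at an unadjusted p under 0.05.

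**Figure D3:**
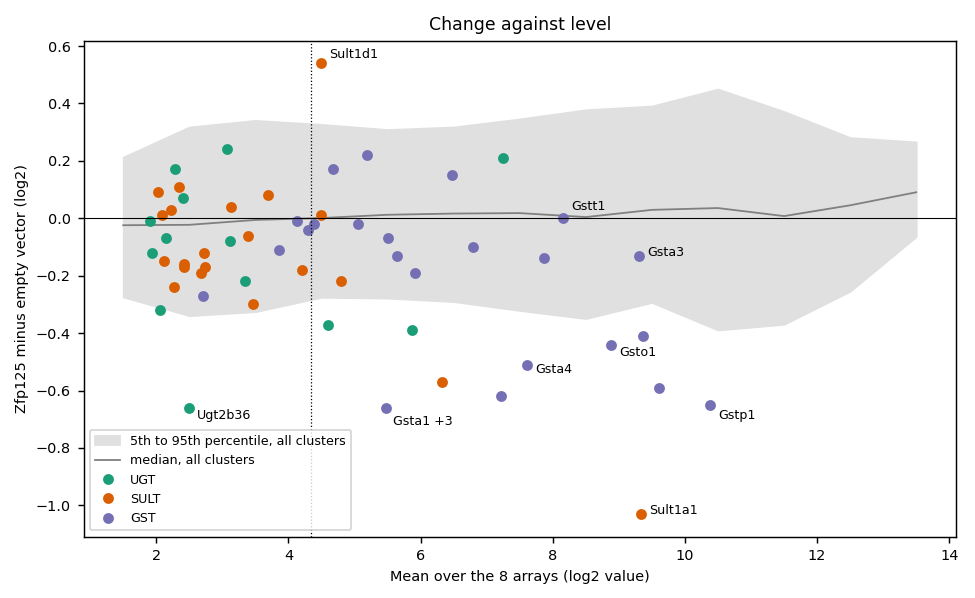
Change (Zfp125 minus empty vector, log2) of each cluster against its mean over the 8 arrays; the grey band spans the 5th to 95th percentile of all clusters in steps of 1 log2 unit, and the dotted line is the median level, 4.34. The GST points that lie below the band are spread from 5.47 to 10.38 in level, and 30 of the 57 clusters lie at or below the dotted line.

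Clusters were placed in runs of genes along the genome by their annotated symbols, and where their probes map was not checked. By this placing, the Gstp run had 4 of 4 clusters apart and lower. The run of Gsta4, Gsta1, Gm3776, Gm10639 and Gsta2 had 2 of 4. The run of 13 genes from Ugt2b34 to Sult1e1 had 0 of 12 clusters apart, the run of 8 Sult2a genes 0 of 8, the mu class run 0 of 7 and the theta class run 0 of 4. Over all clusters 3.03% lay apart and lower and 3.2% apart and higher, so counts of 0 in runs this short are near those shares. Most clusters of the Ugt2b34 to Sult1e1 run and of the Sult2a run were dim. Neighbouring clusters can share probes of near-identical copies, so a locus is not a set of independent measurements.

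Genes that supply donors to these enzymes, carry out related steps, export the conjugates or regulate them were taken from a list of 119, of which 111 were measured by a cluster with 1 symbol. With limma 0 were called lower and 1, Foxa1, was called higher, where 0.123% and 0.0242% of all clusters were. At an unadjusted p under 0.05 there were 19 lower and 6 higher, where 4.52% and 4.91% of all clusters were. In 16 genes (14.4%) every Zfp125 array lay below every empty vector array and in 6 (5.41%) above, against 3.03% and 3.2% of all clusters. Of the 111 genes 88 lay above the median level, where 4.18% of all clusters lay apart and lower and 4.86% apart and higher. The share of the list apart and higher was thus near that of clusters of like level. The median change over the list was -0.06.

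Glucuronidation needs UDP-glucuronic acid. The 8 measured genes listed around its supply include some that do not make or carry it. Of them Slc35b1, Ugdh and Slc35d1 lay apart and lower and Slc37a4 apart and higher, where 3.03% and 3.2% of all clusters did so. Ugp2 had overlapping groups and a change of -0.05. Ugdh, which makes UDP-glucuronic acid from UDP-glucose, had values of 8.31, 7.88, 8.03 and 8.0 in empty vector cells and of 7.69, 7.70, 7.58 and 7.67 in Zfp125 cells. Its groups lay apart, with a change of -0.40 ± 0.10 (adjusted p = 0.235). Slc35b1, a nucleotide carrier of the endoplasmic reticulum, had a change of -0.53 ± 0.12 (adjusted p = 0.173, and 0.0471 among clusters with a symbol). For sulfation, 0 of 10 supply genes lay apart: Papss2, which makes the sulfate donor, had values of 5.27, 4.61, 5.03 and 5.0 against 4.71, 4.45, 4.55 and 4.67 (change -0.39 ± 0.14, adjusted p = 0.411), and the sulfate transporter Slc26a1 had a change of -0.30 ± 0.13.

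Of 14 genes of glutathione synthesis and recycling, 4 lay apart and lower (28.6%) and 1 apart and higher (7.14%), where 3.03% and 3.2% of all clusters did so. Cth, which makes cysteine from cystathionine, had values of 6.86, 6.65, 6.66 and 6.95 in empty vector cells and of 6.25, 6.20, 6.26 and 6.19 in Zfp125 cells. The gap was wide beside the spread of the Zfp125 arrays (SD 0.04), with a change of -0.56 ± 0.09 (adjusted p = 0.0772, and 0.0133 among clusters with a symbol). The glutathione synthetase Gss had a change of -0.25 ± 0.09 with overlapping groups. The other genes apart and lower were the dim Slc7a11, Cbs and Oplah, with changes of -0.25, -0.31 and -0.14. Gsr was apart and higher, with a change of 0.19, and none of these passed the test. The subunits of the rate-limiting enzyme, Gclc and Gclm, had changes of -0.11 (95% interval -0.31 to 0.09) and 0.11 (-0.16 to 0.38). The microsomal glutathione transferases Mgst1, Mgst2 and Mgst3, which are unrelated in sequence to the cytosolic ones, had changes of -0.03, -0.02 and -0.01, each with a 95% interval inside -0.26 to 0.21. Of the mercapturate steps, which trim glutathione conjugates, the dipeptidases Dpep1 and Cndp2 lay apart with changes of 0.32 ± 0.08 and -0.33 ± 0.09 (adjusted p = 0.227 and 0.235). Of the 17 genes listed with the Mgst genes and these steps, 11.8% lay apart and lower and 5.88% apart and higher. Among 19 other conjugation and deconjugation enzymes the arsenic methyltransferase As3mt had a change of -0.47 ± 0.14 and the sulfatase Arsb of 0.22 ± 0.08, both with groups apart (adjusted p = 0.309 and 0.427). Each was the only 1 of the 19 in its direction (5.26%), near the 4.18% lower and 4.86% higher of clusters above the median level.

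Abcc2, the pump that exports glutathione and glucuronide conjugates into bile, was the 1 gene of 16 for transport whose groups lay apart. That share, 6.25%, was near the 4.18% of clusters above the median level that lay apart and lower (3.03% of all clusters). Its values were 7.72, 7.55, 7.73 and 7.83 in empty vector cells and 6.81, 7.08, 7.14 and 7.32 in Zfp125 cells. The change was -0.62 ± 0.12 (adjusted p = 0.109, and 0.0193 among clusters with a symbol). The organic anion transporter Slc22a7 had a change of -0.20 ± 0.09 (adjusted p = 0.547).

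Of 27 measured regulators, 5 lay apart and lower (18.5%) and 2 apart and higher (7.41%), where 3.03% and 3.2% of all clusters did so. Above the median level these shares were 4.18% and 4.86%, so the count apart and higher was near that of clusters of like level. Foxa1, a pioneer factor of liver, had values of 5.90, 5.74, 5.69 and 5.55 in empty vector cells and of 6.52, 6.81, 6.64 and 6.37 in Zfp125 cells, and it rose by 0.86 ± 0.12 (adjusted p = 0.0364). This call ended without any 1 of 7 arrays (adjusted p = 0.0528 to 0.119), the exception being Zfp125 replicate 4, and without variance moderation (0.124). Hnf4a, a hepatocyte factor, had values of 8.70, 8.62, 8.70 and 8.84 against 8.34, 8.32, 8.31 and 8.38, apart on all arrays with a change of -0.38 ± 0.08 (adjusted p = 0.14). The xenobiotic and antioxidant sensors all had overlapping groups. Nfe2l2 had a change of 0.01 (95% interval -0.17 to 0.19), its inhibitor Keap1 of -0.08 (-0.27 to 0.11), Ahr of 0.14 (-0.09 to 0.37), Nr1i2 of -0.16 (-0.37 to 0.04) and the dim Nr1i3 of -0.07 (-0.25 to 0.12). These are mRNA levels, and the activity of the sensors was not measured.

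**Figure D4:**
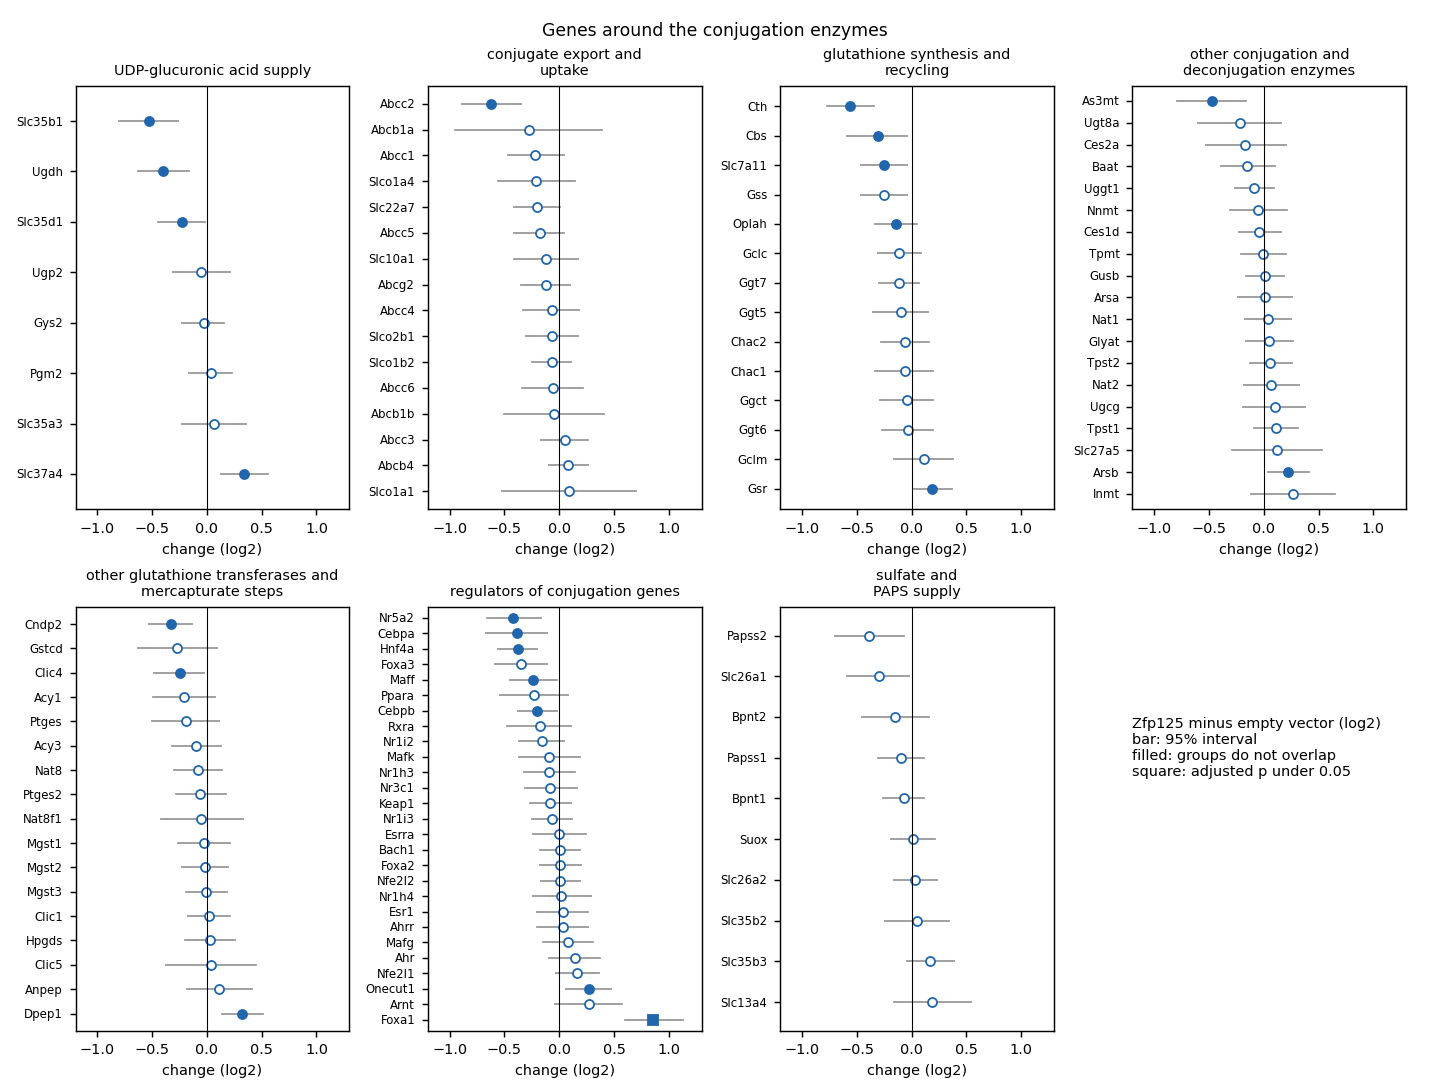
Changes (Zfp125 minus empty vector, log2) with 95% intervals of the 111 measured genes around the conjugation enzymes, by role; filled points have groups that do not overlap, and the square, Foxa1, passed the test. Cth, Abcc2 and Slc35b1 lie at -0.56, -0.62 and -0.53, while Nfe2l2 and Mgst3 lie at 0.01 and -0.01.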

How the data were processed

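Gene expression was measured in AML12 cells on Affymetrix arrays, with 4 samples expressing Zfp125 and 4 with the empty vector, grouped by sample title. The table deposited by the authors holds log2 expression for 41345 transcript clusters; the scale was inferred from their range. The submitters' processing notes name Affymetrix Expression Console and Transcriptome Analysis Console. Versions, background correction and normalization are not given in the labels or notes. Outside the alternatives no value was normalized again, and the number of arrays limits the precision.

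Gene symbols came from the platform annotation: 23521 clusters carry 1 symbol, 1814 several and 16010 are unnamed here. Symbols were checked through the Entrez identifier against the GRCm38.p6 RefSeq table, and 0 of the 57 member clusters needed an update. Members with several symbols were kept; for other genes the cluster with 1 symbol and the highest mean was used. Linear models (lmFit and eBayes) from limma 3.58.1 (R 4.3.3) covered all clusters, with Benjamini-Hochberg adjustment over all of them, two-sided; the fit was tested on simulated data. Exact permutation tests of 4 against 4 arrays cannot give a p below 0.0286. The members, the lists and the rule for named genes (array values for members passing the test, the 5 of each family with the smallest p and members sharing a cluster, locus or near-identical protein with these; of other genes, those passing and the 2 of each list with the smallest p) were chosen with earlier results of these data known. Gclc, Gclm, Gsr, Slc7a11, Cbs, Oplah, Ugp2, Slc35d1, Slc37a4, the Mgst genes, Keap1, Nfe2l2, Ahr, Nr1i2 and Nr1i3 lie outside the rule. So do the array values of Gsto1, Gstm1, Gsta3 and Gstt1 and the levels and changes of the single cell type markers named, other than Hnf4a. All of these were chosen after their values were seen. Alternatives covered normalization, level filters, variance moderation, array weights, the clusters tested, a block by replicate number, and omission of each array. Figures used matplotlib 3.10.9.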

Additional observations from a re-analysis of the deposited data

Results flagged for a closer look

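In 11 of 142 sets of 4 values (71 clusters in 2 groups), 1 array lay far from the other 3, with a gap to its neighbour above Dixon's 95% limit; chance alone gives about 1 in 20. Among the glutathione transferases, Zfp125 replicate 4 was low for Gstp1, at 9.85 against 10.12 to 10.15, and empty vector replicate 2 was low for Gstm7, at 5.78 against 6.06 to 6.12. Zfp125 replicate 1 was high for Gstm1, at 7.96 against 7.73 to 7.76, and for the cluster of Gstm5 and 4933431E20Rik, at 5.38 against 5.27. Among dim clusters, Zfp125 replicate 2 was high for Sult6b1, at 2.83 against 2.48 to 2.53, and empty vector replicate 4 was high for Sult3a1, at 2.74 against 2.41 to 2.42. Zfp125 replicate 1 was low for Sult2a1, at 2.07 against 2.10 to 2.11, Zfp125 replicate 4 was high for Ugt2b1, at 3.53 against 3.15 to 3.16, and empty vector replicate 3 was high for Ugt3a1, at 2.53 against 2.03 to 2.10. Of the genes around the enzymes, empty vector replicate 1 was low for Dpep1, at 4.84 against 4.92 to 4.94, and Zfp125 replicate 4 was high for Cndp2, at 6.92 against 6.74 to 6.76.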

How the results depend on the processing

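The 5 clusters of each family and the 2 genes of each surrounding list with the smallest p kept their direction under every alternative. Other members with a change near 0 did not when 1 array was left out: examples are Gstt1 (-0.06 to 0.08), Gsto2 (-0.09 to 0.05), Sult2b1 (-0.08 to 0.10) and Ugt2b5 (-0.22 to 0.13). Counts of calls differed between settings. Of all clusters 51 were lower and 10 higher. Without variance moderation these were 3 and 1, with a trended, robust prior 126 and 70, above the median level 146 and 86, among clusters with a symbol 150 and 110, and with 1 cluster per gene 141 and 99. Higher calls were 4 with median centring and 22 above the 25th percentile of level. Leaving out 1 array gave 16 to 51 lower and 0 to 15 higher. GST clusters called lower, 1 in the principal fit, were 6 with the trended prior, above the median level and among clusters with a symbol, 4 with 1 cluster per gene, 2 above the 25th percentile, and 0 without moderation or without any 1 array. The background of lower calls was 0.305% with the trended prior, 0.706% above the median level, 0.592% among clusters with a symbol and 0.636% with 1 cluster per gene. SULT clusters called lower, 1 in the principal fit, were 2 with 1 cluster per gene, 0 without moderation, and 0 to 1 when 1 array was left out. Genes of the surrounding list called lower, 0 in the principal fit, were 3 with the trended prior, above the median level, among clusters with a symbol and with 1 cluster per gene, and the 1 called higher became 0 without moderation and 0 to 1 when 1 array was left out. The median change of the UGT clusters, -0.08, was -0.37 above the median level, where 3 of the 13 clusters remain.

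With the replicate number as a block, 0 clusters were called lower and 0 higher (SULT, GST and the surrounding list also 0), with Sult1a1 at an adjusted p of 0.0993. Whether same-numbered arrays were handled together is not stated. The correlations of their deviations were -0.0415, -0.0232, 0.03 and -0.0117, and those of differently numbered pairs ran from -0.0425 to 0.053.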
